A study of Mus musculus with 9 samples.

Results

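Skeletal muscle contractile genes were followed in RNA from mouse sciatic nerve, a tissue that runs between the muscles of the thigh and holds axons, Schwann cells and connective tissue but no muscle fibres of its own. The set was a list of 42 mouse genes of the sarcomere, of calcium handling and of muscle energy supply, matched by symbol. The list was chosen with earlier results of these data known. Of these, 41 matched a row of the 36121 genes in the table, and Pvalb-ps, which matched none, has no value here. The values are TPM, the share of transcript molecules corrected for length, scaled further by the authors and called normalized TPM below. They are per transcript length, so that levels of different genes can be set side by side within a library.

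The study removed TDP-43, an RNA-binding protein encoded by Tardbp, from the myelinating glia and sequenced the sciatic nerves of C57BL6 mice 21 days old, 1 library per mouse. All 9 mice carried floxed Tardbp. The 3 control mice were Tardbp-fl/fl without Cre, the 3 cHet mice were Cnp-Cre; Tardbp-fl/+ and the 3 cKO mice were Cnp-Cre; Tardbp-fl/fl, with 2 females and 1 male in each group. Cre is driven from the Cnp locus, which is active in Schwann cells and oligodendrocytes. Groups follow the sample titles. The genotype field of the labels differs from the title for 3 mice, ID-2742, ID-2744 and ID-2747. Tardbp lay between 94.2 and 103 in the cKO libraries, between 177 and 186 in the cHet and between 185 and 217 in the control. Cnp lay between 1168 and 1700 in the control and between 498 and 849 in the cHet and cKO libraries, with ID-2742, whose field reads Tardbp-fl/fl, at 640. Mbp and Prx, genes of the myelin sheath that Schwann cells form, were between 15387 and 31048 and between 1536 and 2893 in the 9 libraries, so that the labelled tissue has its markers.

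A striated muscle fibre contracts when calcium released from the sarcoplasmic reticulum binds troponin C on the thin filament, troponin I and tropomyosin move aside, and myosin heads pull on actin. Fast and slow fibres build the same machine from different genes: fast fibres use Myh1, Myh2 and Myh4, Mylpf, Myl1, Tnnc2, Tnni2 and Tnnt3, and slow fibres use Myh7, Myl2, Myl3, Tnnc1, Tnni1 and Tnnt1. Mouse limb muscle is mostly fast. Myogenic factors bind E boxes (CANNTG), SRF binds the CArG box and MEF2 proteins bind an A/T-rich site, and such motifs are common near the starts of muscle genes.

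The promoters of 4 members are shown because these genes carry the contrasts described below: Acta1 and Mylpf, skeletal actin and the fast regulatory light chain, were high in the same pair of libraries, and Tnni1 and Tnnc1, slow troponin I and slow troponin C, were not. Each is a window of 300 bases around the start in RefSeq (GRCm38.p6), 5′ to 3′ on the gene's strand: chr8:123894726-123895025 on the minus strand, chr7:127211358-127211657, chr1:135799171-135799470 (the first of 2 overlapping windows of this gene) and chr14:31208062-31208361 on the plus strand. Capitals mark matches to CANNTG, the CArG box or the MEF2 site.
Acta1: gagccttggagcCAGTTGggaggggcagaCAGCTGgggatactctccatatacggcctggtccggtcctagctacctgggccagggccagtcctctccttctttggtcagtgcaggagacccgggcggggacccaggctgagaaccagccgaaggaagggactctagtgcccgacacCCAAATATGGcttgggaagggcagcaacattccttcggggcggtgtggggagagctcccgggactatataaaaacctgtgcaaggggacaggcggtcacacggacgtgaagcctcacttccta
Mylpf: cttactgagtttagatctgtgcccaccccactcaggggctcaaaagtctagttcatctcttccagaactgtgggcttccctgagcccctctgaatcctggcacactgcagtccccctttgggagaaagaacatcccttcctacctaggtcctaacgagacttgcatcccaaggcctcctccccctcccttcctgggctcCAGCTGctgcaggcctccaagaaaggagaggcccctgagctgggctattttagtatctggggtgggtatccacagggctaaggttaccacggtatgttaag
Tnni1: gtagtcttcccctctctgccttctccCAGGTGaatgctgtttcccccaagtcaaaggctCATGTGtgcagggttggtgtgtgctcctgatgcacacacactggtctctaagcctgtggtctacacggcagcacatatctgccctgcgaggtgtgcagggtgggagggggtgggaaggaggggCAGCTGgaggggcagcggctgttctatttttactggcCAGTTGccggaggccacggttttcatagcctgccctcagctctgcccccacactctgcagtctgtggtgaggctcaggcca
Tnnc1: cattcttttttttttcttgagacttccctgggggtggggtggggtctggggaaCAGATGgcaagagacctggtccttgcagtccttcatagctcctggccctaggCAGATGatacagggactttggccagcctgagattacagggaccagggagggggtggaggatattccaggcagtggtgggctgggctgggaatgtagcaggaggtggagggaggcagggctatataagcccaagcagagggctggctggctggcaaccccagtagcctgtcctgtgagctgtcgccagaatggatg

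The Acta1 window held 1 CArG box and 2 matches to CANNTG, 1 of them CAGCTG. The Mylpf window held 1 CAGCTG, the Tnni1 window 4 matches to CANNTG with 1 CAGCTG among them, and the Tnnc1 window 2 matches to CANNTG and 0 to CAGCTG. Windows were found for 34 of the 42 members. CAGCTG stood in the windows of 18 of these 34 (52.9%), against 18.3% of 27025 genes with a window. The CArG box stood in 4 (11.8%, against 1.81%), the MEF2 site in 6 (17.6%, against 3.7%) and CANNTG in 30 (88.2%, against 75%). Every one of these motifs reads the same on both strands, each CAGCTG is also a CANNTG, and matches are descriptions of letters only.

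Summed over the 41 members, the level differed more among the control mice and among the cKO mice than between the group means. Among the cHet mice it did not. In the order of mouse IDs used from here on, the control libraries (ID-2743, ID-2746 and ID-2754) summed to 28001, 640.1 and 602 normalized TPM, the cHet libraries (ID-2742, ID-2745 and ID-2750) to 565, 1008 and 841, and the cKO libraries (ID-2744, ID-2747 and ID-2748) to 883, 1573 and 14431. Control mouse ID-2743 and cKO mouse ID-2748 stood far above the other 7 mice, and the groups overlapped. As a share of all values of the library the members made up 2.74% in ID-2743 and 1.42% in ID-2748, against 0.0594% to 0.136% in the other 7. The group means were 9748 ± 15808 in the control, 805 ± 223 in the cHet and 5629 ± 7630 in the cKO (SD over 3 mice each), with SDs larger than the means in control and cKO. Without ID-2743 the control mean was 621, and without ID-2748 the cKO mean was 1228. In bulk RNA, more muscle fibres in a sample and more RNA per fibre cannot be told apart.

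Markers of other cell types also varied between single mice, those of the high pair among them. Markers of adipocytes summed to 2977 in control ID-2743 and 3891 in control ID-2754, against 84.2 to 725 in the other 7 libraries, with 0 of 10 markers listed at 0 in any library. Neuron markers summed to 4311 in control ID-2746, 1723 in cHet ID-2742 and 1906 in cKO ID-2748, against 176 to 420 in the other 6, and 0 of 13 were listed at 0. Red blood cell markers summed to 8116 in cKO ID-2748 and 6713 in cHet ID-2742, against 1275 to 4066 in the other 7, with 0 of 6 listed at 0. Smooth muscle and mural markers summed to between 668 and 1029 and cardiac markers to between 31.5 and 46.6. Within both lists single genes varied more: Synpo2 was 22.4 in ID-2743 and 9.24 in ID-2748 against 1.61 to 3.12 elsewhere, and Acta2 ranged from 12.5 to 48.1. The cardiac marker Nppb was 7.11 in ID-2746, 6.78 in ID-2742 and 6.96 in ID-2748, against at most 0.760 elsewhere. The part of these cell types in the levels of the muscle genes was not tested.

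**Figure D1:**
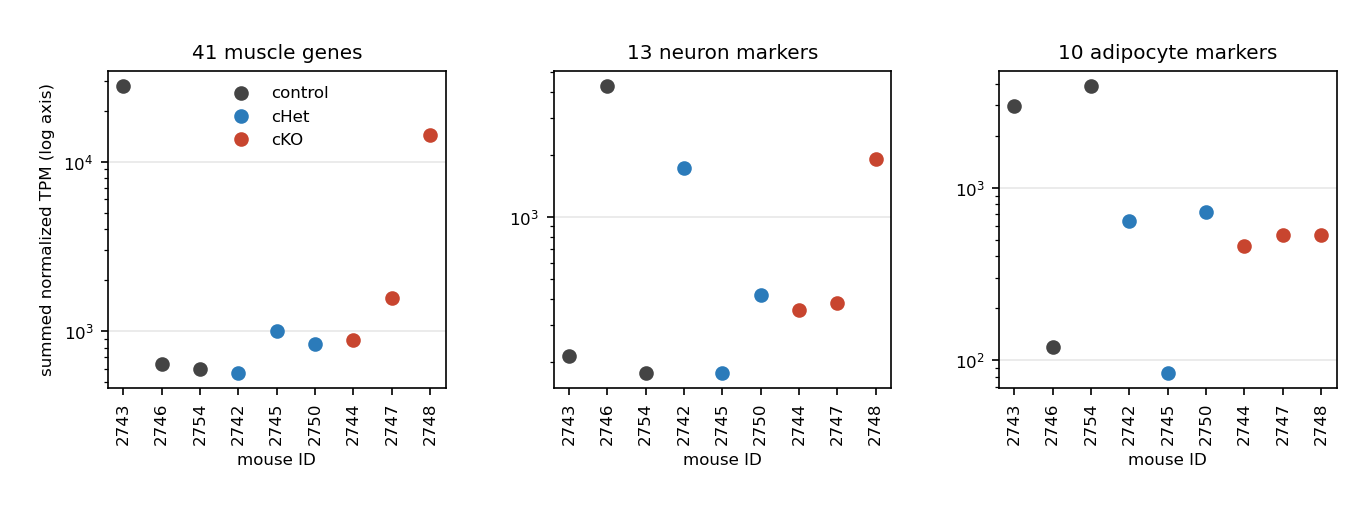
Summed normalized TPM per library (log axes) for the 41 muscle genes, 13 neuron markers and 10 adipocyte markers, 1 point per mouse, coloured by genotype. The muscle sum is 28001 in control ID-2743 and 14431 in cKO ID-2748 and at most 1573 elsewhere, the highest neuron sum, 4311, is in control ID-2746 and the highest adipocyte sum, 3891, in control ID-2754.

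Most members were high together in this pair of libraries. Of the 41 members, 34 were highest in ID-2743, 4 in cKO ID-2747 and 3 in cHet ID-2745. For 31 members ID-2743 was first and ID-2748 second, and the same pair was on top for 3.18% of the 15014 genes whose mean reached 1. The pair was picked by the sum of these same members, so that this count is a description and not a test. The 31 include all 11 members of the Z disc, titin and thick filament scaffold, all 5 matched calcium genes and all 5 energy genes. The other 10 were Myh2, Myh3, Myh7, Myh8, Myl2, Myl3, Tnnc1, Tnni1, Tnnt1 and Tpm3. Across the 31, the level in ID-2743 was a median of 2.0 times that in ID-2748 (quartiles 1.85 and 2.40).

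**Figure D2:**
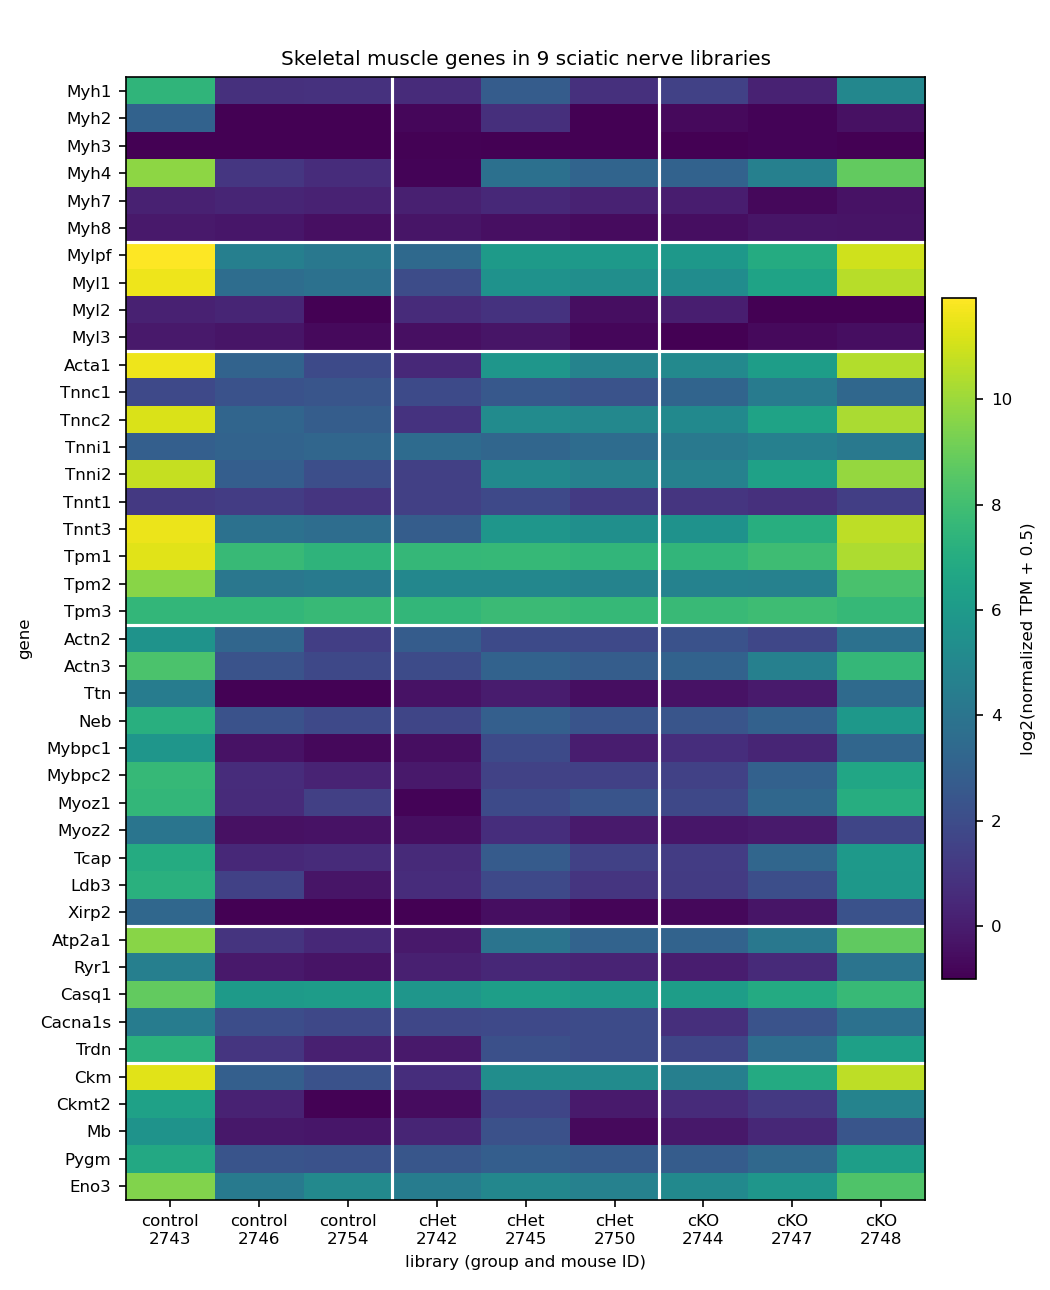
Level of the 41 matched genes, as log2(normalized TPM + 0.5), in each of the 9 libraries, with white lines between groups of libraries and between roles (myosin heavy chains, light chains, thin filament, scaffold, calcium, energy from top to bottom). Control ID-2743 and cKO ID-2748 are bright for most genes, Tpm1, Tpm3 and Casq1 are bright everywhere, and Myh3, Myh7, Myh8, Myl2 and Myl3 are dark everywhere.

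Among myosin heavy chains, the motors of the thick filament, Myh4 of the fastest fibres (type 2B) had the highest level in 7 of the 9 libraries. Its level was 859, 1.55 and 1.04 in the control, 0.0539, 13.2 and 8.45 in the cHet, and 7.94, 24.5 and 444 in the cKO. It was lowest in cHet ID-2742, and the groups overlapped. Myh1 (type 2X) was 175, 1.24 and 1.31 in the control, 0.993, 6.31 and 1.21 in the cHet, and 2.31, 0.671 and 31 in the cKO. Thus Myh1 was 20.3% of Myh4 in ID-2743 and 6.98% in ID-2748. Myh2 (type 2A) reached 7.93 in ID-2743, 1.16 in cHet ID-2745 and 0.244 in ID-2748, so that ID-2748 was below ID-2745 for it.

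Of the summed 6 heavy chains, Myh4 made up 82.4% of 1043 in ID-2743 and 93.3% of 476 in ID-2748. It made up 95.3% of 25.7 in cKO ID-2747, 71.5% of 11.1 in cKO ID-2744, 60.5% of 21.7 in cHet ID-2745 and 80.4% of 10.5 in cHet ID-2750, and in control ID-2746, control ID-2754 and cHet ID-2742, where the sum was only 2.09 to 3.93, it made up 39.4%, 31.9% and 2.58%. Myh1 was above Myh4 in ID-2754 and ID-2742. Myh7, the slow and cardiac heavy chain, stayed between 0.113 and 0.892 in all 9 libraries and was not higher in ID-2743 (0.638) or ID-2748 (0.262). The embryonic chain Myh3 was at most 0.0440, and the neonatal chain Myh8 lay between 0.149 and 0.406. These heavy chains share sequence: 42.9% of the 31-base words in Myh1 transcripts, 34.5% of those in Myh2 and 30.4% of those in Myh4 occur in another gene, so that their split rests on the authors' assignment of shared reads.

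The light chains, which brace the lever arm of myosin, split by fibre type in the same way. Mylpf was 3871, 23.1 and 17.4 in the control, 10.3, 65.4 and 62.0 in the cHet, and 59.5, 124 and 2030.1 in the cKO. Myl1, the fast essential light chain, was 3054, 11.9 and 13.8, then 3.55, 47.9 and 41, then 38.8, 91.0 and 1502. Both were detected in all 9 libraries and lowest in cHet ID-2742. The slow light chain Myl2 was at most 1.38 and listed at 0 in 3 libraries, and Myl3 was at most 0.414.

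Over 8 pairs of fast and slow isoforms, the median share of the fast member was lowest in cHet ID-2742, which also had the lowest sum of members. This median was 99.9% in ID-2743 and 99.6% in ID-2748, with 7 and 8 of the 8 pairs over 90%. In the other 7 libraries it ran from 66.6% in ID-2742 to 97.2% in cKO ID-2747. Some shares rest on values under 1, such as Myoz1 at 0.0497 and Myoz2 at 0.191 in ID-2742. This was not confined to ID-2742. The slow members Myh7 and Myl3 were at most 0.892 and 0.414 in any library, and in control ID-2754 Mybpc2 was 0.708 and Mybpc1 0.116. In ID-2742 the troponin I share rests on Tnni1 at 11.0, a gene that was at 7.08 in ID-2743. Of the 10 fast isoforms, 9 had ID-2743 and ID-2748 as the highest libraries, all but Myh2, and of the 8 slow isoforms 2 did, Mybpc1 and Myoz2. The fast share of the heavy chains was 85.4% ± 12.6 in the control, 84.9% ± 16.9 in the cHet and 98.2% ± 2.65 in the cKO (SD, n = 3), with overlapping groups.

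The 10 fast isoforms can be set against their own level in ID-2743, taken as 100%. In ID-2748 their median was 52.1%, in cKO ID-2747 3.54%, in cHet ID-2745 1.71%, in cKO ID-2744 1.44% and in cHet ID-2750 1.38%. The remaining libraries were at 0.419% (control ID-2746), 0.378% (control ID-2754) and 0.168% (cHet ID-2742). The medians thus spread over more than 2 orders of magnitude. Myh2 was listed at 0 in control ID-2754 and cHet ID-2750.

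**Figure D3:**
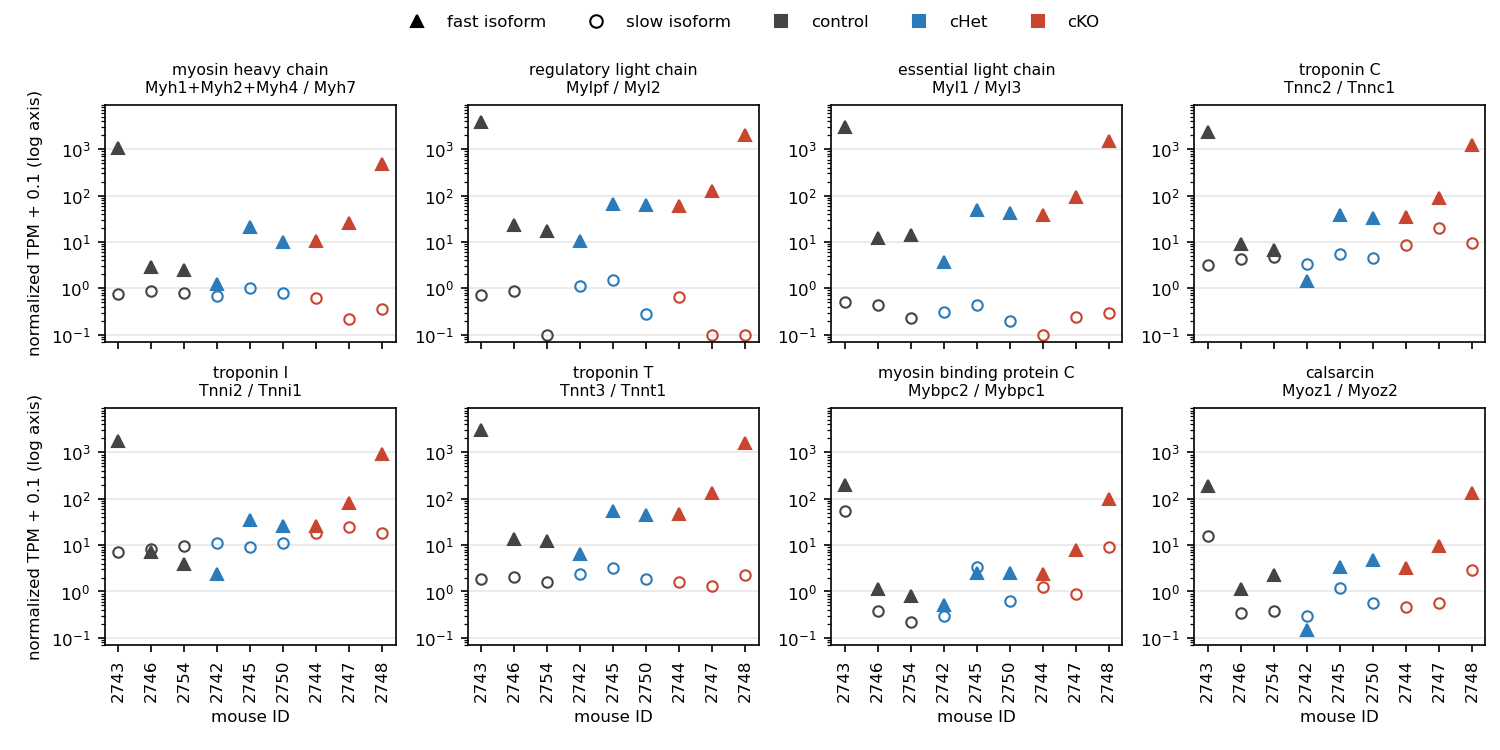
Level of the fast (triangles) and slow (open circles) isoform of 8 sarcomere proteins in each library, in normalized TPM plus 0.1 on log axes, coloured by genotype. The triangles are highest in control ID-2743 and cKO ID-2748, while the open circles do not follow them except for Mybpc1 and Myoz2, and Tnni1 and Tnnc1 are higher in the 3 cKO libraries.

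Skeletal actin, Acta1, the main thin filament protein of adult skeletal fibres, was 3134, 8.27 and 3.24 in the control, 0.907, 54.3 and 26.5 in the cHet, and 33.4, 71.3 and 1369 in the cKO. The fast troponins followed it. Tnni2 was 1790.7, 6.88 and 3.81, then 2.27, 34.8 and 25.5, then 25.2, 82.4 and 945. Tnnt3 and Tnnc2 reached 2981 and 2309.5 in ID-2743 and 1611 and 1224 in ID-2748. For Tnnc2, 59% of its 31-base words also lie in transcripts of Ube2c, the gene of a ubiquitin-conjugating enzyme, annotated on the other strand, whose own level was at most 8.97. Groups overlapped for each of these genes.

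Tropomyosins, which cover the myosin sites on actin, are also known from cells other than muscle fibres. Tpm3 lay between 186 and 242 in all 9 libraries and was lowest in ID-2743. Tpm1 was 2573 in ID-2743 and 1296 in ID-2748 but kept 168 to 237 in the other 7, and Tpm2 was 798 and 295 against 17.1 to 31. In those 7 libraries Tpm1 and Tpm3 were the highest of the 41 members. Without the 3 tropomyosins the other 38 members summed to 24443, 220.5 and 206 in the control, 148, 555 and 433 in the cHet, and 458, 1069 and 12635 in the cKO.

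Slow troponin I, Tnni1, was the only member called between genotypes. It was 7.08, 8.27 and 9.24 in the control, 11.0, 9.01 and 11.3 in the cHet, and 18.4, 24.6 and 18.2 in the cKO. All 3 cKO libraries lay above all 6 others. Over all tested genes, 8.85% had the cKO above the control without overlap and 13.3% had it above the cHet. ID-2743, the library richest in fast muscle transcripts, had the lowest Tnni1 value of all. The mean was 20.4 ± 3.64 (SD, n = 3) in the cKO, 10.4 ± 1.24 in the cHet and 8.19 ± 1.08 in the control. The log2 fold change was 1.26 between cKO and control (standard error 0.16, 95% interval 0.89 to 1.62, adjusted p = 0.0102 by limma) and 0.93 between cKO and cHet (standard error 0.16, 95% interval 0.56 to 1.29, adjusted p = 0.0298 by limma). Between cHet and control it was 0.33 (95% interval -0.03 to 0.70), which did not pass. Without ID-2743 and ID-2748 the log2 fold changes were 1.24 and 1.0, with adjusted p = 0.107 and 0.108 by limma on 7 libraries. Without any one of the 3 cHet or 3 cKO libraries the call against cHet was lost (adjusted p from 0.0746 to 0.136 by limma), while the call against control held without any one library. The call against control was lost with only the 2 groups compared in the fit (adjusted p = 0.0538 by limma) and without the libraries high in neuron markers (0.129) or adipocyte markers (0.150). Mice ID-2744 and ID-2747, titled cKO, have genotype fields that read as cHet, and their levels of 18.4 and 24.6 lay with the 18.2 of ID-2748, whose field matches its title.

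Slow troponin C, Tnnc1, the calcium sensor of slow and cardiac thin filaments, was also highest in the cKO. It was 3.10, 4.29 and 4.74 in the control, 3.20, 5.45 and 4.48 in the cHet, and 8.46, 20.2 and 9.39 in the cKO. The cKO did not overlap with either group, where 8.85% of all tested genes lay above the control in this way and 13.3% above the cHet. The log2 fold change of Tnnc1 was 1.45 between cKO and control (standard error 0.33, adjusted p = 0.0853) and 1.36 between cKO and cHet (adjusted p = 0.0977), so that it did not pass by limma. Tnnc1 overlaps Nisch on the opposite strand, a gene with a mean level of 299.6, and the strandedness of the libraries is not given in the sources used here. Of the 31-base words of Tnnc1, 6.27% occur in other genes and 0.289% in Nisch transcripts. Nisch itself had a log2 fold change of -0.23 between cKO and control (adjusted p = 0.522 by limma). The part of Nisch reads in the level of Tnnc1 was not tested.

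The third slow troponin, Tnnt1, slow troponin T, lay between 1.22 and 3.09 with overlapping groups, and from control to cKO its log2 fold change was -0.10 (95% interval -0.70 to 0.50). Cardiac troponin T, Tnnt2, a gene outside the 42, was 3.49, 4.18 and 6.48 in the control, 3.81, 2.79 and 4.60 in the cHet, and 10.6, 6.96 and 8.79 in the cKO, with adjusted p = 0.191 and 0.0797 by limma against control and cHet. Cardiac troponin I, Tnni3, was between 8.51 and 14.1 and did not pass in any comparison. Of the other slow isoforms, Myh7, Myl2 and Myl3 had no cKO library above 0.547, Mybpc1 was 1.14, 0.764 and 9.06 in the cKO, and Myoz2 was 0.370, 0.463 and 2.80.

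**Figure D4:**
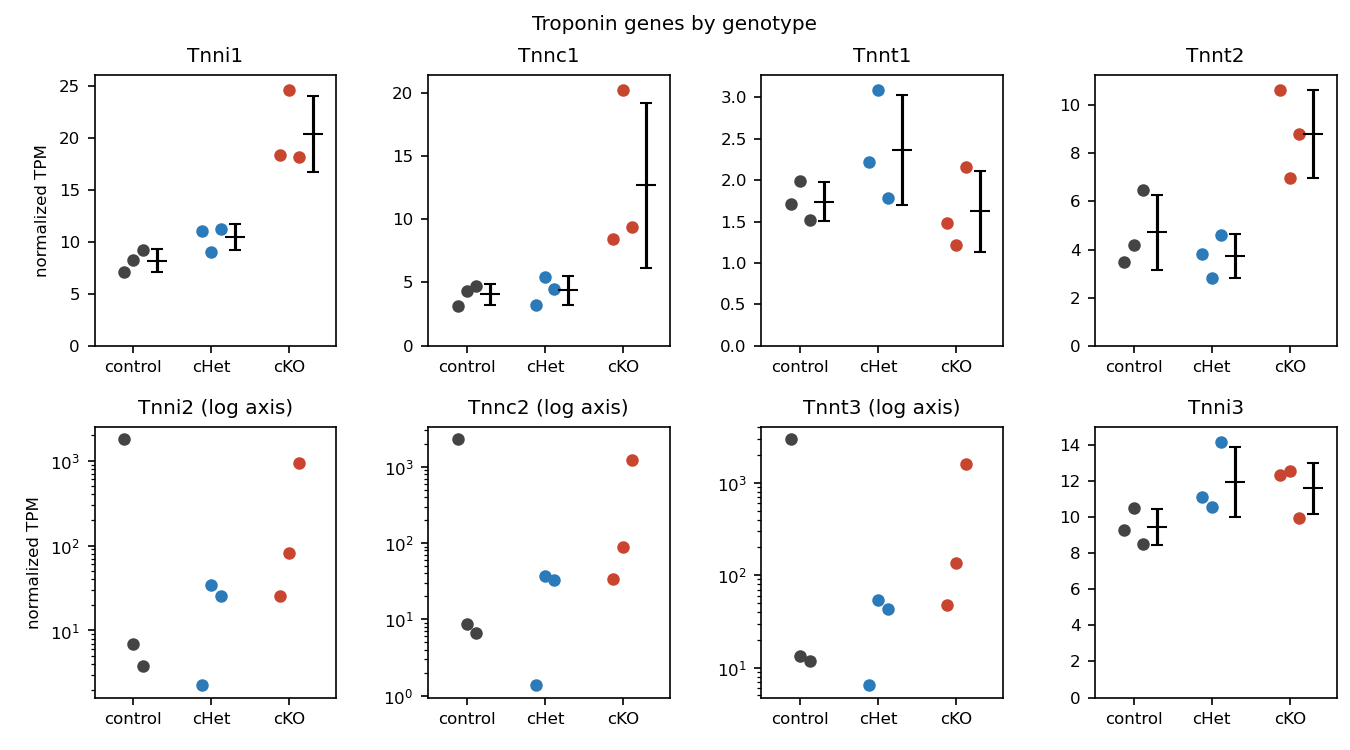
Troponin genes by genotype in normalized TPM, 1 point per mouse, with mean ± SD (n = 3) as bars on the linear axes and points alone on the 3 log axes. Tnni1 and Tnnc1 are higher in all 3 cKO libraries, from 18.2 and from 8.46, than in all 6 others, whereas the fast troponins Tnni2, Tnnc2 and Tnnt3 are highest in 1 control and 1 cKO library.

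Scaffold proteins of the sarcomere followed the fast pattern at lower levels. Neb, which spans the thin filament, was 139.6 in ID-2743 and 59.6 in ID-2748 against 2.78 to 7.51 elsewhere, and titin, Ttn, was 21.0 and 10.5 against 0.0220 to 0.499. Actn3, the Z disc actinin of fast fibres, was 302 and 195 against 3.0 to 23.9, and Actn2, the actinin of all fibres, was 48.9 and 13.7 against 2.18 to 9.21. Mybpc2, fast myosin binding protein C, was 198 and 99.7, while Mybpc1, its slow relative, was 54.9 and 9.06. Myoz1 was 189 and 131, and Myoz2, calsarcin of slow fibres, was 15.7 and 2.80. Tcap, Ldb3 and Xirp2, Z disc and junction proteins, were 122, 144 and 9.61 in ID-2743 and 60.4, 58.8 and 4.31 in ID-2748, with at most 9.01, 3.85 and 0.319 elsewhere.

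The members did not keep 1 ratio between these libraries. For 6 of the 31 members the ratio of ID-2743 to ID-2748 was over 3: Mb, 10.4, Mybpc1, 6.06, Myh1, 5.63, Myoz2, 5.62, Actn2, 3.57, and Ckmt2, 3.09. Mb, myoglobin, stores oxygen, and Ckmt2 is the creatine kinase of mitochondria. These 6 genes were picked by their ratio and no common theme was tested. Among the genes outside the 31, the slow isoforms Tnni1, Tnnc1 and Tnnt1 had ratios of 0.389, 0.330 and 0.792. The slow isoforms Myh7 and Myl3, at levels under 1, had ratios of 2.44 and 2.10, and Myl2 was listed at 0 in ID-2748. The fast isoform Myh2, at 0.244 in ID-2748, had a ratio of 32.5. The level in ID-2748 was 51.7% of that in ID-2743 for Myh4 and 9.59% for Mb. Of the 3 groups, control and cKO hold 1 such library each and the cHet none, so that this difference has no replicate.

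Calcium genes followed the same order. Atp2a1, the calcium pump of fast fibres, was 788, 1.40 and 0.886 in the control, 0.410, 15.4 and 8.07 in the cHet, and 8.27, 17.7 and 436 in the cKO. Ryr1, the release channel, was 23.4 in ID-2743 and 14.9 in ID-2748 against 0.293 to 0.942 elsewhere. Cacna1s, the voltage sensor that opens it, was 20.7 and 13.6 against 1.19 to 4.44, and Trdn, which ties it to the calcium store, was 149.9 and 81.0 against 0.407 to 12. Casq1, the calcium buffer of the store, kept a level in all libraries: 443 and 209.6 in the high pair and 55.6 to 118 in the other 7.

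Of the energy genes, Ckm, muscle creatine kinase, was 2621, 6.95 and 4.26 in the control, 1.10, 39.2 and 36.8 in the cHet, and 23.4, 117 and 1613 in the cKO. Its lowest and highest values thus lay more than 3 orders of magnitude apart with groups that overlapped. Eno3, muscle enolase, was 711, 19.1 and 33.2, then 21.0, 30.5 and 25.3, then 34.2, 54.0 and 329. Its cKO libraries lay above the cHet libraries without overlap, as was so for 13.3% of all tested genes. For Eno3 the log2 fold change of 1.72 had a standard error of 1.30 (adjusted p = 0.608 by limma). Pygm, which breaks down glycogen, was 112 in ID-2743 and 74.0 in ID-2748 and 4.21 to 9.69 elsewhere. Ckmt2 and Mb were 84.5 and 49.8 in ID-2743 and at most 27.4 and 4.78 in any other library.

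Between genotypes, 36 members had a mean of at least 1 and entered the test over 15014 genes; Myh3, Myh7, Myh8, Myl2 and Myl3 lay below it. A gene above it only through ID-2743 or ID-2748 passed that filter as well. Between cKO and control 1 member was higher, Tnni1, and 0 were lower, where 1.57% of all tested genes passed, 0.932% higher and 0.633% lower. Between cKO and cHet 1 was higher, again Tnni1, and 0 lower, where 1.71% of all tested genes passed, 0.932% higher and 0.773% lower. Between cHet and control 0 of 36 passed by limma, as did 0% of all genes, and at an unadjusted p under 0.05 the counts were 0 of 36 and 408 of 15014 (2.72%). At the same unadjusted level 2 members, Tnni1 and Tnnc1, passed in each comparison with the cKO, against 12.9% of all tested genes for the control and 14.6% for the cHet.

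Counted by overlap among the 36 tested members, 2 (Tnnc1 and Tnni1) had every cKO library above every control library, against 8.85% of all tested genes. Of the 36, 0 had every cKO library below, against 8.57%. Between cKO and cHet 3 of the 36 (Tnnc1, Tnni1 and Eno3) had all cKO libraries above, against 13.3%, and 0 below, against 11%. Between cHet and control 36 of 36 overlapped, where 7.1% of all tested genes did not, 2.69% higher and 4.41% lower. Myh7, too low to be tested, had all cKO libraries (0.113 to 0.526) below all control and cHet libraries (0.595 to 0.892). Of its 31-base words, 22.5% occur in transcripts of Myh6, a gene described at the end.

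The median log2 fold change over the 36 members was 0.28 between cKO and control, -1.31 between cHet and control and 1.45 between cKO and cHet, beside medians of -0.02, -0.03 and 0.02 over all tested genes. Over all 41 members, without the filter, the medians were 0.16, -1.22 and 1.32. These medians turned on single libraries. Without control ID-2743 they were 1.87 between cKO and control and 0.56 between cHet and control, and without cKO ID-2748 they were -0.60 between cKO and control and 0.53 between cKO and cHet. Without both they were 1.07, 0.56 and 0.53. With each library left out in turn, the medians ran from -0.60 to 1.87 between cKO and control. They ran from -2.26 to 0.56 between cHet and control and from 0.53 to 2.13 between cKO and cHet. The largest fold change among the members, that of Ckm between cKO and cHet, was 3.63 with a 95% interval from -2.24 to 9.50.

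**Figure D5:**
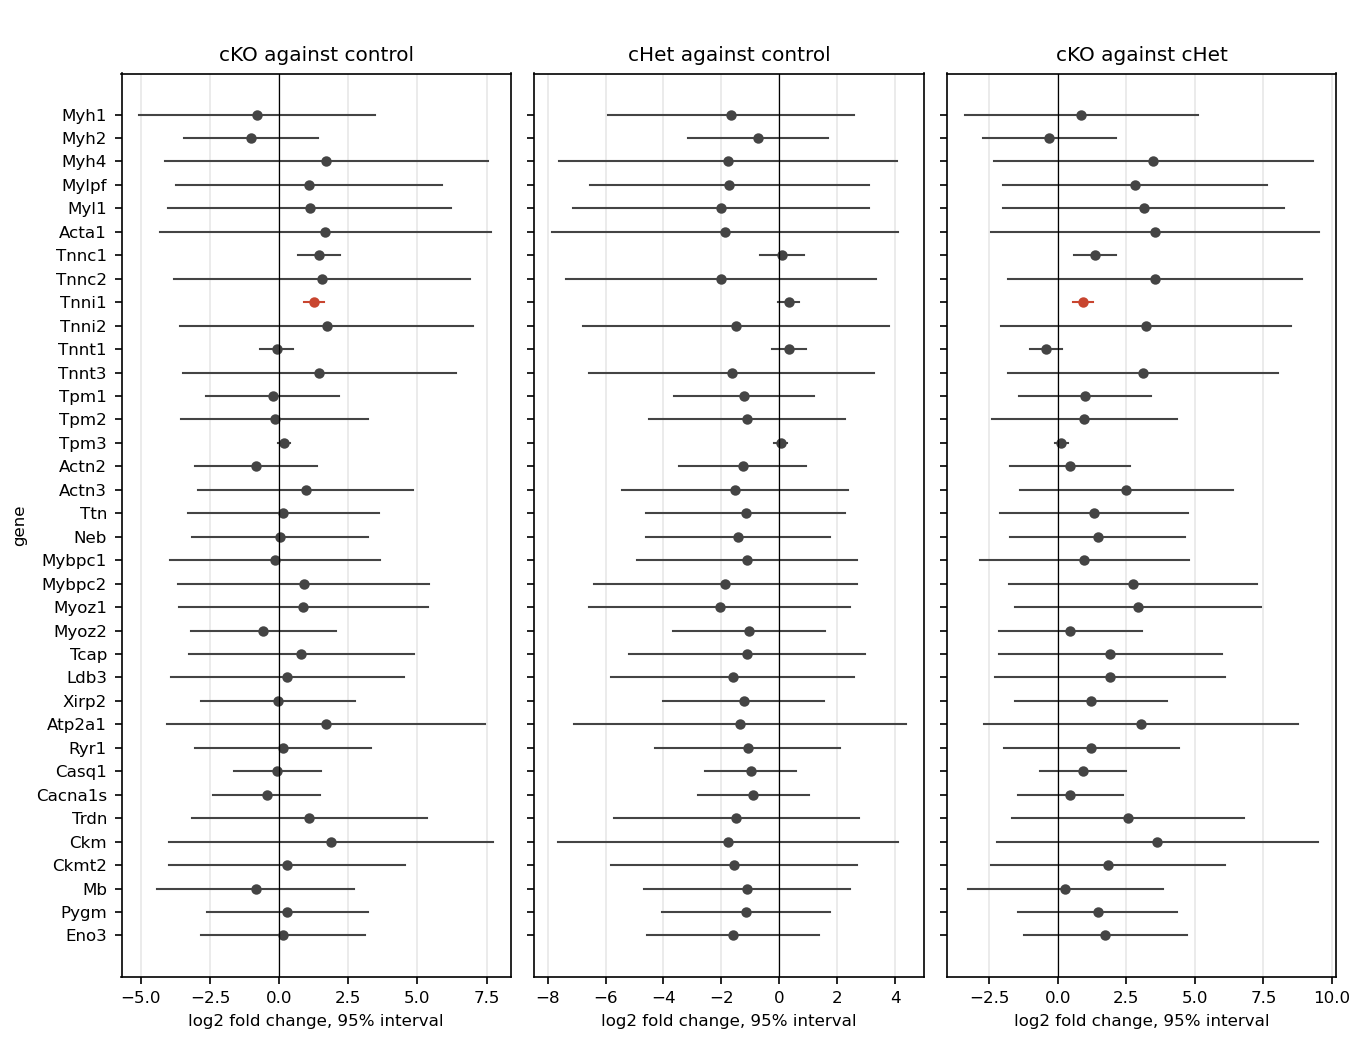
Log2 fold change and 95% interval from limma for the 36 members tested, in each of the 3 comparisons, with genes that passed at an adjusted p of 0.05 in red. Tnni1 passes in both comparisons with the cKO, at 1.26 and 0.93, and the fast muscle genes have intervals that span 0 widely, as Ckm does from -2.24 to 9.50.

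A set of 99 muscle genes was read from lists beside the members, with the member Myh3 again among them. For 66 of them (66.7%) ID-2743 and ID-2748 were the highest libraries, against 3.18% of all tested genes. Of the 77 tested, 0 were higher and 1 was lower (1.3%) between cKO and control and between cKO and cHet, against 1.57% and 1.71% of all tested genes. At an unadjusted p under 0.05 by limma, 4 and 7 were higher and 2 lower in each, against 12.9% and 14.6% of all tested genes in either direction. Between cHet and control 0 of 77 passed. At the unadjusted level 0 were higher and 1 lower there, against 2.72% of all tested genes. Pvalb, the calcium buffer of fast fibres, was 2146, 68.1 and 9.35 in the control, 12.9, 45.5 and 35.4 in the cHet, and 33.2, 92.0 and 1175 in the cKO. Its level was higher in control ID-2746 than in cHet ID-2745. The median of the fast isoforms was lower there, at 0.419% against 1.71% of ID-2743. ID-2746 also had the highest sum of neuron markers, 4311, and the part of neurons in the level of Pvalb was not tested. Actc1, cardiac actin, was 228 in ID-2743 and 201 in ID-2748 against 0.306 to 6.27 elsewhere. Among 12 myogenic factors and stem cell genes only 2 reached a mean of 1, and the high pair was on top for 7. Myod1, Myog and Myf6 were 1.65, 1.41 and 5.29 in ID-2743 and 0.479, 1.51 and 4.66 in ID-2748. In the remaining libraries these 3 genes were at most 0.675. Of 12 denervation and atrophy genes 1, Trim63, had the high pair on top, at 15.6 and 11.2 against 1.96 to 3.39.

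The gene that was lower was Sgcd, delta-sarcoglycan of the dystrophin complex. It was 50.9, 50.5 and 45.4 in the control, 50.6, 65.8 and 54.8 in the cHet, and 18.3, 15.7 and 24.3 in the cKO. All cKO libraries lay below all others and ID-2743 was not high, unlike Sgca, alpha-sarcoglycan of muscle fibres, at 25.4 in ID-2743 and 13.4 in ID-2748 against 0.175 to 3.91. Over all tested genes, 8.57% had the cKO below the control without overlap and 11% had it below the cHet. The log2 fold change of Sgcd was -1.33 against control (standard error 0.16, adjusted p = 0.00893 by limma) and -1.55 against cHet (standard error 0.16, adjusted p = 0.00467). Without cKO ID-2744 the adjusted p against control was 0.0529. Dmd, dystrophin, was between 114 and 167 in all libraries.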

How the data were processed

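The authors sequenced total RNA from sciatic nerves with the TruSeq kit and deposited 1 signal per gene and library, in TPM that had been normalized. Tools listed by the submitters in their notes on processing are kallisto 0.44.0 and sleuth 0.30.0, on GRCm38. For strandedness and for the scaling and annotation release behind this table, the sources used here give nothing; the paper names a release for a separate alignment of the reads. Library sums ran from 934932 to 1158094. TPM keep no depth, so that no counting error is given.

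Symbols were matched by Ensembl identifier for 35471 of 36121 genes. The members and gene lists were chosen with earlier results of these data known. All members may be named, and of other lists the 4 highest genes and any that passed. Tnnt2, Synpo2, Sgca, Trim63, Myod1, Myog, Nisch and Ube2c were named after their values were seen. Genes with a mean of at least 1 were fitted as log2(value + 0.5), which understates the change of low genes, with limma 3.58.1 in R 4.3.3 (3 groups, eBayes with a trend, Benjamini-Hochberg over 15014 genes, threshold 0.05). The fit was tested on simulated data. By the paper's methods sets of mice came from the same or nearly coeval litters, but the labels tie no mouse to a litter, and p-values measure the spread between these mice. Shared 31-base words were counted in GENCODE transcripts. Some marker genes are not reported here.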

Additional observations from a re-analysis of the deposited data

How the results depend on the processing

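Alternatives were pseudocounts of 0.1 and 1, no filter or a mean of at least 5, 3 other scalings, only the 2 groups compared, sex as a covariate, no trend, each library left out in turn and, added after seeing the data, 3 removals of libraries high in muscle, neuron or adipocyte markers. The count of members higher between cKO and control fell from 1 to 0 with only the 2 groups in the fit (Tnni1 adjusted p = 0.0538 by limma) and without the libraries high in muscle genes (0.107), neuron markers (0.129) or adipocyte markers (0.150), and stayed at 1 without any single library. Between cKO and cHet it fell from 1 to 0 with no filter (0.0591), only the 2 groups (0.0526), sex (0.0528) and the same 3 removals (0.108, 0.192 and 0.0558), and was 0 to 1 with single libraries left out, 0 without any one of the cHet or cKO libraries. The direction of Tnni1 held in all 22 alternatives, with log2 fold changes from 1.12 to 1.34 between cKO and control. The removals leave fewer libraries, and the cause of the other losses was not tested. Tnnc1 passed in none (adjusted p from 0.0702 to 0.329 and from 0.0860 to 0.344). Sgcd lost its call against control without cKO ID-2744 (0.0529) and without the libraries high in neuron (0.0566) or adipocyte markers (0.151), and kept it against cHet in all 22. With single libraries left out the summed level ranged from 621 to 14321 in the control, 703 to 924 in the cHet and 1228 to 8002 in the cKO. No paired analysis was possible because the labels give mouse IDs and no replicate numbers shared between groups.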

Other observations

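Outside the muscle lists, the 10 named genes whose log2 values were most like the mean pattern of the members over the 9 libraries were Rpl3l, Hfe2, Ppp1r27, Fitm1, Apobec2, Sypl2, Des, Slc16a3, Dhrs7c and Pdlim3, with Pearson's r from 0.968 to 0.989 over 9 libraries that include the pair high in muscle genes. Of 11248 candidates with a mean of at least 5, 16 had an r of at least 0.95. Rpl3l, a ribosomal protein of striated muscle, was 55.1 in control ID-2743 and at most 0.554 in the other control libraries. Des, desmin of the muscle intermediate filaments, was 87.6 in ID-2743 and 2.41 and 3.45 in the other control libraries.

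Myh6, the fast cardiac heavy chain and a gene outside the members, had all 3 cKO libraries below the other 6. Over all tested genes, 8.57% had the cKO below the control without overlap and 11% had it below the cHet. Myh6 was 15.3, 16.8 and 22.4 in the control, 20.0, 21.7 and 23.7 in the cHet, and 14, 10.6 and 11.1 in the cKO. The log2 fold change between cKO and cHet was -0.86 (standard error 0.16, adjusted p = 0.0444 by limma), a call that was lost in 14 of 22 alternatives, and between cKO and control it was -0.58 (adjusted p = 0.158).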
